A study of Mus musculus with 7 samples.

Results

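The red cell membrane skeleton genes described here are 8 of the 49315 genes of the count table: Slc4a1, Ank1, Epb42, Sptb, Epb41, Add2, Rhag and Rhd. They were chosen by symbol, and each symbol matched 1 Ensembl gene ID in GENCODE M21. Counts came from poly(A)-selected RNA of mouse bone marrow, taken while the animals ate chow and after hindlimb ischemia, a surgical block of limb blood flow. The 4 KO libraries were labelled miR-181a2b2-/-, a deletion of the microRNA cluster of miR-181a-2 and miR-181b-2, and the 3 flox libraries were miR-181a2b2flox/flox, with the cluster between loxP sites. Diet and surgery were common to both groups, so no library shows marrow without ischemia. The labels name no Cre line and give no strain, age or number of animals, and nothing in them says that libraries of 1 group came from separate mice, so p-values measure the spread between these libraries, which may be technical.

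Mammalian red cells survive passage through narrow vessels because a mesh of spectrin and short actin filaments lies under their membrane. The mesh hangs from the anion exchanger band 3 (Slc4a1) through ankyrin (Ank1), and from its actin junctions through the Epb41 protein and adducin. Its parts are made in bone marrow by maturing erythroblasts, together with haemoglobin, and inherited loss of spectrin, ankyrin, band 3 or the Epb42 protein causes spherical or elliptical fragile red cells.

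Sequences of the deleted microRNAs are given first, because the genotype is defined by them. The mature 5p arms, as RefSeq lists them on GRCm38.p6, lie on the plus strand at chr2:38852741-38852763 and chr2:38853845-38853868. Capitals mark the seed, bases 2 to 8, which both share.

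mmu-miR-181a-5p: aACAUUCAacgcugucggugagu

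mmu-miR-181b-5p: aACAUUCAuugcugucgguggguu

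A match to the seed (TGAATGT, on the transcript strand) was found in 2 of the 8 genes, taking for each gene its longest 3' UTR in GENCODE M21. Among the 14268 tested genes with a 3' UTR, 17.8% held such a match, and 5.81% held it followed by A (TGAATGTA, counted within the first group). The match in Sptb started at base 1053 of a 3' UTR of 2737 bases (GRCm38 chr12:76582154-76582183, minus strand), and the one in Ank1 at base 1145 of 2243 (GRCm38 chr8:23149388-23149417, plus strand) with the additional A. Both are shown in 30 bases of transcript, with the match in capitals.

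Sptb: gaacacagggaTGAATGTtgaggctattag

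Ank1: gagtagggctgTGAATGTAcctgccagttc

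No match was found in the 3' UTRs of Epb42, Epb41, Slc4a1, Rhag, Rhd and Add2, of 192 bases (Rhd) to 6872 bases (Epb41). The search describes letters in these windows and says nothing of binding.

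RefSeq promoter windows were at hand for 6 of the 8 genes, all but Ank1 and Slc4a1, with 3 windows for Epb41. In the 250 bases before the start, a GATA motif (AGATAA or TGATAA, or the same with a final G, so AGATAG or TGATAG, on either strand) stood in 5 of these 8 windows and in 26.5% of all 32851 windows. GATA1, the main transcription factor of erythroid cells, binds such motifs. The motif CCNCNCCC, of the kind bound by the erythroid factor KLF1, stood in 4 of the 8 windows and in 45.9% of all windows, either strand, with overlapping matches counted. The windows of Rhag (GRCm38.p6 chr17:40810899-40811148, plus strand), Rhd (chr4:134864286-134864535, plus strand) and Epb42 (chr2:121036878-121037127, minus strand) are shown because each held a single GATA motif, in capitals, and no CCNCNCCC. The motif began 31, 43 and 226 bases before the start of Rhag, Rhd and Epb42.

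Rhag: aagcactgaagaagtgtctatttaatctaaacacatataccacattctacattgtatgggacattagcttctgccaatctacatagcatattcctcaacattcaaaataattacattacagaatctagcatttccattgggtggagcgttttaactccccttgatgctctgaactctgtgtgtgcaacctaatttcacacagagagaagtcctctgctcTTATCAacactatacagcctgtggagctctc

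Rhd: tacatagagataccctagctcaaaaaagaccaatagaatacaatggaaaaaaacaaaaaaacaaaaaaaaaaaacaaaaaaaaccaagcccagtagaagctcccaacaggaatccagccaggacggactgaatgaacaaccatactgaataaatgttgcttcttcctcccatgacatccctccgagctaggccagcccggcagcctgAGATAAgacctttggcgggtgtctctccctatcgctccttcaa

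Epb42: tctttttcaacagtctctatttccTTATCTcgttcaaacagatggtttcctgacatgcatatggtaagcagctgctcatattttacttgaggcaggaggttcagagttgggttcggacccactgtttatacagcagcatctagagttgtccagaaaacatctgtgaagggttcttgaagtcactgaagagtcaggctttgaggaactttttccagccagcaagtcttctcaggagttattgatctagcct

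Each library held 43110251 to 48320848 counts in KO and 46151300 to 51688514 in flox, of which 302567 to 586876 fell on the 8 genes, so counting error was small beside the spread between libraries. Of the whole table, 17920 genes passed the filter on low counts, all 8 genes among them. On the first principal component (34.7% of the variance) flox 1 stood apart, at a score of 58.7, against -23.2 to -16.6 in KO and 14.2 and 5.48 in flox 2 and flox 3. Extraction is described in the labels for white adipose tissue and the source is given as bone marrow; 4 haemoglobin genes summed to 46814 to 61001 CPM in KO and 28696 to 47725 CPM in flox, and 9 neutrophil markers to 32446 to 41219 CPM in KO and 40825 to 58162 CPM in flox. CPM are counts scaled to a common library size, with TMM factors. Mir181a-2 and Mir181b-2, the microRNA genes of the deleted cluster, had 0 counts in all 7 libraries, KO and flox alike, so the table gives no check of the genotype labels.

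The 8 genes did not differ between KO and flox marrow beyond the spread between libraries. Every one of them averaged higher in KO, by 0.13 to 0.25 on the log2 scale, and 0 of 8 reached the 0.05 threshold of adjusted p in edgeR's quasi-likelihood test (0.618 to 0.853). At an unadjusted p under 0.05, edgeR gave 0 of 8, against 14.1% of all tested genes. Among all tested genes 0.145% passed with edgeR and 2.04% with DESeq2, which also called 0 of the 8. KO and flox values overlapped for all 8 genes, whereas they did not overlap for 13.6% of tested genes. Exact two-sided permutation tests, 1 per gene over the 7 libraries, gave p from 0.371 to 0.600, where the smallest possible p is 0.0286. The 95% intervals of the log2 fold changes ran at their widest from -0.37 (Add2) to 0.79 (Ank1). In bulk marrow, a different share of erythroid cells and a different level of these RNAs per cell cannot be told apart.

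**Figure D1:**
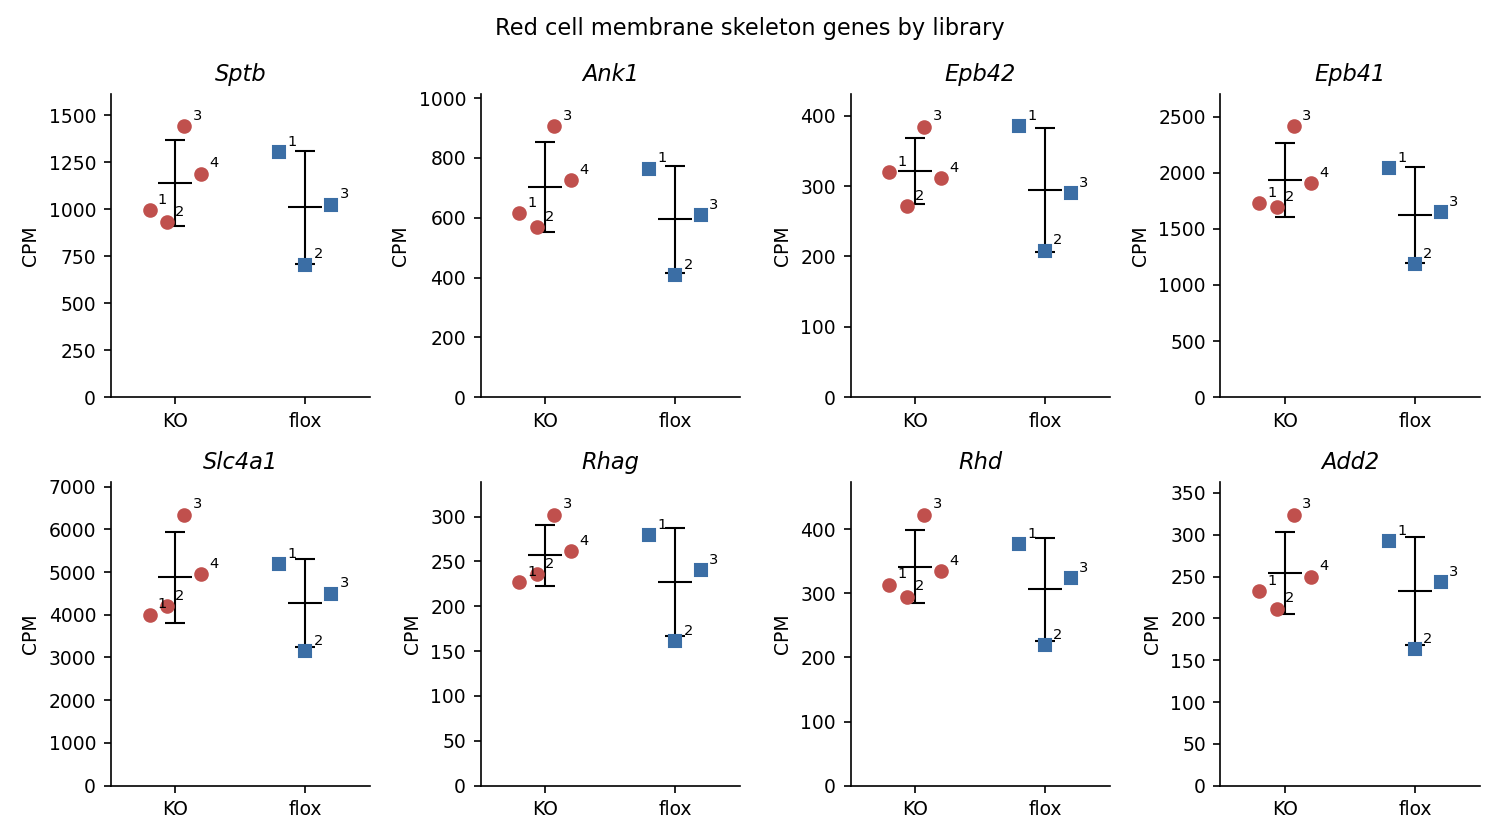
CPM of each of the 8 genes in KO (circles, 4 libraries, left) and flox (squares, 3 libraries, right); numbers are replicates, and the black bar is the mean with 1 SD. In every panel flox 2 is the lowest library, and the KO and flox points overlap.

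The membrane anchor was the most abundant part. Slc4a1 (chromosome 11, 102348824 to 102366203, GRCm38), band 3, exchanges chloride for bicarbonate and holds the skeleton to the lipid bilayer. Its level was 4004, 4201, 6345 and 4953 CPM in KO 1 to KO 4, against 5189, 3150.4 and 4492 CPM in flox 1 to flox 3. KO 3 was the highest and flox 2 the lowest, and the other libraries interleaved. The means were 4876 ± 1062 CPM in KO (SD, n = 4) and 4277 ± 1036 CPM in flox (SD, n = 3), or 0.19 on the log2 scale (edgeR adjusted p = 0.748, SE 0.20).

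Ank1 (chromosome 8, 22974844 to 23150497) encodes ankyrin, which ties spectrin to band 3. It stood at 615, 567, 907 and 725 CPM in KO and at 764, 408 and 609 CPM in flox. Flox 1 lay above 3 of the 4 KO libraries and flox 2 below them all. The averages of 703 ± 151 CPM in KO (SD, n = 4) and 594 ± 179 CPM in flox (SD, n = 3) were 0.24 apart on the log2 scale (SE 0.23, 95% interval -0.30 to 0.79, edgeR adjusted p = 0.713). Ank1 shares 862 exonic bases with the antisense gene Gm15816, whose counts were 197, 233, 357 and 260 in KO and 292, 137 and 233 in flox. How the counting treated strand is unknown here, so reads of this overlap cannot be told apart. The microRNA gene Mir486 lies within Ank1 on the same strand and had 26, 47, 69 and 45 counts in KO and 47, 31 and 39 in flox (log2 fold change 0.33, SE 0.32, edgeR adjusted p = 0.711); poly(A) libraries do not measure mature microRNAs.

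Epb42 (chromosome 2, 121017891 to 121037072) encodes a relative of the transglutaminases that steadies the link between ankyrin and band 3. Its values were 319.9, 271, 384 and 312 CPM in KO, against 385, 208 and 289.8 CPM in flox. This was the only one of the 8 genes in which flox 1, by a small margin over KO 3, was the highest library. On average it reached 322 ± 46.8 CPM in KO (SD, n = 4) and 295 ± 88.7 CPM in flox (SD, n = 3), or 0.13 on the log2 scale (edgeR adjusted p = 0.844, SE 0.20).

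Among the skeleton proper, Sptb (chromosome 12, 76580488 to 76710547) encodes beta spectrin, a building block of the mesh. Its level was 996, 933, 1444 and 1190.2 CPM in KO and 1307, 705 and 1025 CPM in flox. KO 3 and flox 1 were high and flox 2 low, in the same order as for Ank1 at the top. Means of 1141 ± 229.5 CPM in KO (SD, n = 4) and 1012 ± 301 CPM in flox (SD, n = 3) were 0.17 apart on the log2 scale (edgeR adjusted p = 0.802, SE 0.22).

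Epb41 (chromosome 4, 131923413 to 132075321) encodes the protein that binds spectrin to actin and to glycophorin C. It is spliced into many forms that other tissues also make, and gene counts do not separate them. KO libraries held 1726, 1696, 2416 and 1905 CPM and flox libraries 2039, 1185 and 1651 CPM. All 4 KO libraries were above flox 2 and flox 3, and flox 1 was above 3 of the 4 KO libraries. With 1936 ± 333 CPM in KO (SD, n = 4) and 1625 ± 428 CPM in flox (SD, n = 3), Epb41 had the largest log2 difference of the 8, at 0.25 (SE 0.19, 95% interval -0.18 to 0.69, edgeR adjusted p = 0.618).

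Add2 (chromosome 6, 86028681 to 86124409), beta adducin, caps actin filaments and recruits spectrin to them. The gene stood at 233, 212, 324 and 249.8 CPM in KO and at 292, 163 and 243 CPM in flox. KO 1 and KO 2 lay between flox 2 and flox 3. The averages were 255 ± 48.9 CPM in KO (SD, n = 4) and 233 ± 64.9 CPM in flox (SD, n = 3), or 0.13 on the log2 scale (edgeR adjusted p = 0.853, SE 0.21). It shares 356 exonic bases with the antisense gene Gm44089, which had 182 counts over all 7 libraries.

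The Rh complex sits beside band 3 in the membrane. Rhag (chromosome 17, 40811126 to 40840754), the glycoprotein that carries the complex and conducts ammonium, had 227, 236, 302 and 262 CPM in KO and 279, 161 and 241 CPM in flox. Rhd (chromosome 4, 134864536 to 134896172), the Rh blood group protein, had 313, 295, 423 and 334 CPM in KO and 376, 219 and 323 CPM in flox. Both were highest in KO 3 and lowest in flox 2, and their groups overlapped. Rhag averaged 257 ± 33.8 CPM in KO (SD, n = 4) and 227 ± 60.2 CPM in flox (SD, n = 3), or 0.18 on the log2 scale (edgeR adjusted p = 0.736, SE 0.18). For Rhd the means were 341 ± 56.6 CPM in KO (SD, n = 4) and 306 ± 80.0 CPM in flox (SD, n = 3), or 0.16 on the log2 scale (edgeR adjusted p = 0.787, SE 0.19). The pair with a miR-181 seed match, Ank1 and Sptb, had log2 fold changes of 0.24 and 0.17, inside the range of 0.13 to 0.25 over the 6 genes without one.

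Which library was left out decided the sign for 5 of the 8 genes. Without flox 2 the log2 fold changes were -0.01 for Sptb, -0.05 for Epb42, -0.000697 for Rhag, -0.02 for Rhd and -0.06 for Add2, and 0.05, 0.09 and 0.03 for Ank1, Epb41 and Slc4a1. Leaving out flox 1 instead gave 0.32 (Add2) to 0.46 (Ank1), where Epb41 (0.44, unadjusted p = 0.0291, edgeR adjusted p = 0.373) and Epb42 (0.37, unadjusted p = 0.0450, edgeR adjusted p = 0.403) had an unadjusted p under 0.05. In the absence of KO 3 they were 0.01 (Add2) to 0.15 (Epb41). The median over the 8 genes was 0.18 with all libraries, 0.36 without flox 1, -0.01 without flox 2 and 0.06 without KO 3, beside a median over all tested genes of -0.01 with all libraries.

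**Figure D2:**
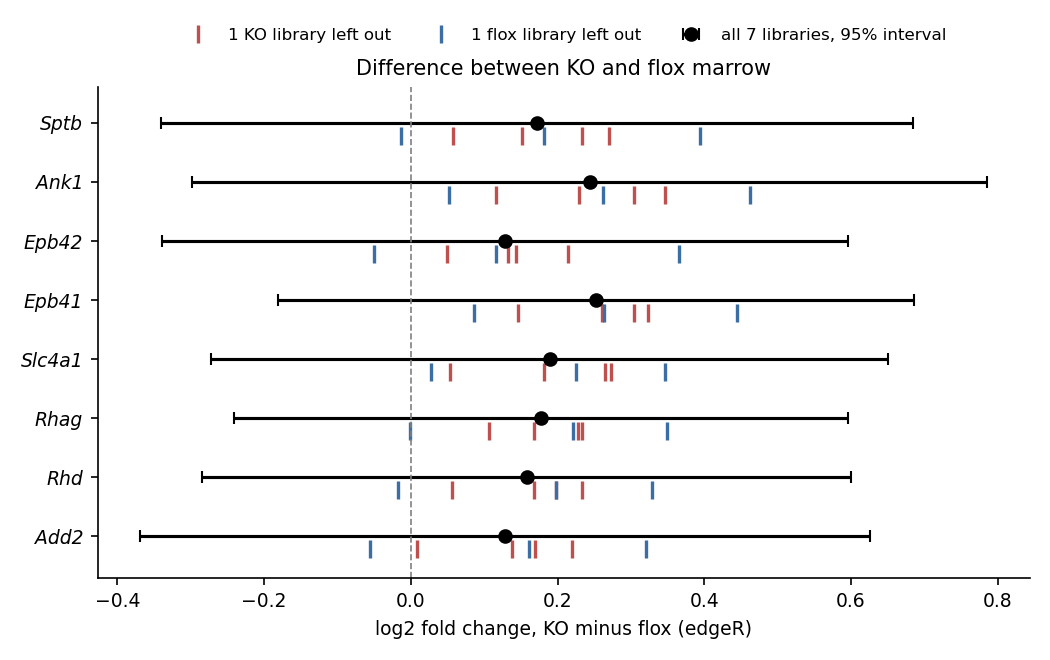
Log2 fold change of each gene, KO minus flox, from edgeR (black point) with its 95% interval; red and blue ticks give the value with 1 KO or 1 flox library left out. All intervals cross 0, and the lowest tick of each gene, without flox 2, lies between -0.06 and 0.09.

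The 8 genes varied together from library to library. Relative to its own mean over the 7 libraries, each gene deviated on the log2 scale by 0.33 (Rhag) to 0.50 (Ank1) in KO 3, by 0.20 to 0.34 in flox 1, and by -0.65 (Ank1) to -0.52 (Slc4a1) in flox 2. In the other 4 libraries all deviations lay between -0.18 and 0.18. KO 3 was the highest and flox 2 the lowest library for 7 of the 8 genes, an order held by 5.93% of all tested genes. The highest library exceeded the lowest by 1.85-fold (Epb42) to 2.22-fold (Ank1). As a description over 7 libraries, Pearson's r of log2 CPM between pairs of the 8 genes ran from 0.897 (Epb42 with Slc4a1) to 0.995 (Rhd with Add2), with a median of 0.973 over 28 pairs; values of 1 library share its depth and its cell make-up. The 8 genes together took 8434, 8412, 12545 and 9930.0 CPM in KO and 10632, 6201 and 8873 CPM in flox.

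**Figure D3:**
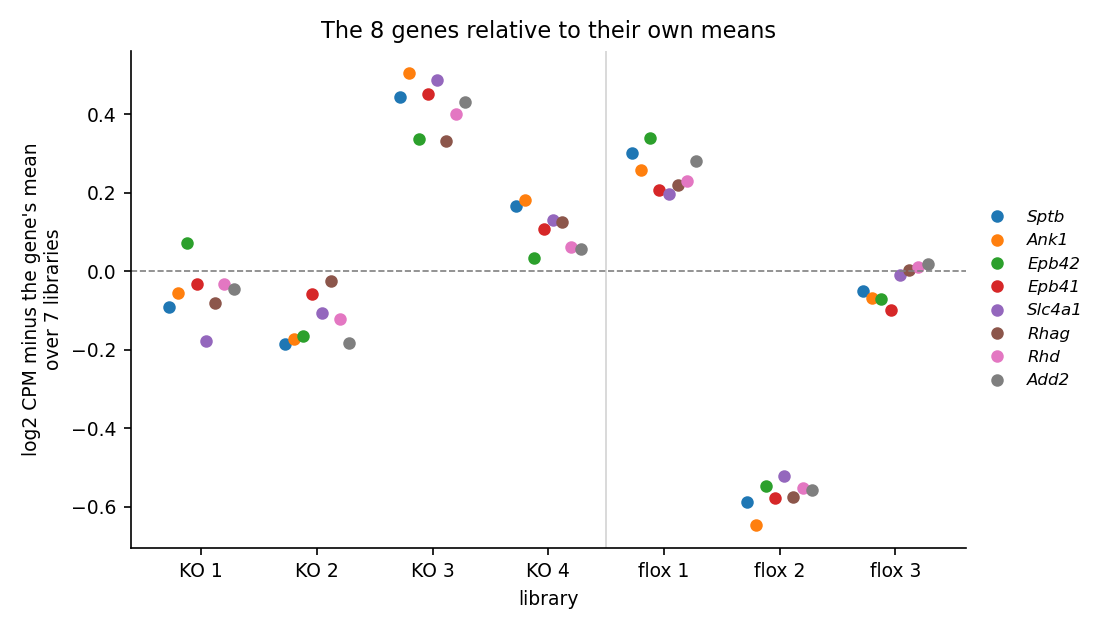
Log2 CPM of each gene minus that gene's mean over all 7 libraries, with the KO libraries left of the grey line and flox libraries right of it. Points of 1 library lie close together, at 0.33 to 0.50 in KO 3 and -0.65 to -0.52 in flox 2.

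Proportions among the 8 genes were steadier than their levels. Slc4a1 made up 47.5, 49.9, 50.6 and 49.9% of their summed CPM in KO and 48.8, 50.8 and 50.6% in flox. Epb41 held 18.6 to 20.5%, Sptb 11.1 to 12.3% and Ank1 6.59 to 7.30%. Over the 7 libraries the coefficient of variation was 18.5 to 24.3% for the genes' CPM and 2.42% (Slc4a1) to 7.89% (Epb42) for their shares. Epb42 had the widest range, with 3.79, 3.23, 3.06 and 3.14% in KO and 3.63, 3.36 and 3.27% in flox. KO and flox shares overlapped for all 8 genes.

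Levels of different genes are compared per kilobase of merged exon, because longer transcripts yield more reads. Slc4a1 was highest, at 944 ± 207 CPM per kilobase (SD over all 7 libraries), 997 ± 217 in KO and 874 ± 212 in flox, and its range did not overlap that of the next gene. Rhd followed at 205 ± 40.1, Epb41 at 113 ± 23.8, Rhag at 104 ± 19.3, Sptb at 89.4 ± 20.4, Epb42 at 57.3 ± 11.6, Ank1 at 48.5 ± 11.8 and Add2 at 24.2 ± 5.16 CPM per kilobase. Below Slc4a1, each gene's range over libraries overlapped that of its neighbour, although within each of the 7 libraries this order held. With the length of the longest transcript the pairs Rhd and Epb41, Rhag and Sptb, and Epb42 and Ank1 changed places, so the order of those neighbours rests on the length used.

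None of the other red cell membrane genes on the list passed the test. Of 28 listed genes 27 were tested, and 0 were called higher or lower with edgeR (unadjusted p under 0.05 for 0 of 27); 20 had a positive and 7 a negative log2 fold change, with a median of 0.08. That direction rested on flox 2: without it the median was -0.05 and 8 of 27 were positive. The median was 0.03 without KO 3, 0.13 without KO 1, 0.15 without KO 2 and 0.20 without flox 1. The blood group gene Icam4 was listed at 0 in all 7 libraries. Among transporters all 10 were positive and none passed: the amino acid carrier gene Slc43a1 gave 0.20, the calcium-gated potassium channel gene Kcnn4 0.18 and the calcium pump gene Atp2b4 0.18, and the surface gene Kel, a blood group protease, gave 0.17 (edgeR adjusted p 0.671 to 0.726). In the negative direction, the lowest p belonged to the tropomyosin gene Tpm3 (-0.20, edgeR adjusted p = 0.377), the adducin gene Add3 (-0.14, 0.390), Tpm1 (-0.16, 0.612) and the laminin receptor gene Bcam (-0.48, 0.755), the last at under 1 CPM. KO and flox values did not overlap for Add3, at 227 to 243 CPM in KO and 246 to 273 CPM in flox. It was the 1 such gene among 8 tested skeleton genes, with 0 of 9 surface and 0 of 10 transport genes, against 13.6% of all tested genes. Add3 and Tpm3 are also expressed outside the red cell line, and in these libraries their r with the mean of the 8 genes was -0.757 and -0.898.

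Erythroid genes outside the lists of red cell membrane genes shared the low of flox 2, and in part the high of KO 3. All 10 progenitor genes were lowest in flox 2, with 4 of them highest in KO 3 and the others in flox 1. Of the 11 tested genes of haemoglobin-making cells, all were lowest in flox 2 and 10 highest in KO 3. Both features held for 14 of these 21 genes, against 5.93% of all tested genes. Of all 17920 tested genes, 3528 were lowest in flox 2 and 3026 highest in KO 3. None of the 21 passed with edgeR, against 0.145% of all tested genes. An unadjusted p under 0.05 was found for 2 of 21, against 14.1% of all tested genes. The median log2 fold change was 0.10 for progenitor genes and 0.33 for haemoglobin-making cells. Without flox 2 it was -0.09 for progenitor genes, with 1 of 10 positive, and 0.14 for haemoglobin-making cells, with 9 of 11 positive. Without KO 3 these medians were 0.04 and 0.18, without flox 1 they were 0.30 and 0.55, and without KO 2 the progenitor median was 0.19. Lowest p were found for the globin genes Hba-a2 (0.50, SE 0.18, edgeR adjusted p = 0.283), Hbb-bt (0.42, SE 0.17, 0.320) and Hbb-bs (0.39, SE 0.18, 0.373), and for Bpgm (0.38, SE 0.19, 0.407), which makes the haemoglobin ligand bisphosphoglycerate. Near-identical globin copies can share reads, so single globin genes are uncertain.

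Set against erythroid genes in the same library, the 8 genes were lower relative to haemoglobin in every KO library, and not relative to other erythroid genes. Their summed CPM over that of 17 erythroid genes other than haemoglobin was 0.742, 0.778, 0.874 and 0.861 in KO and 0.814, 0.821 and 0.819 in flox, and the groups overlapped. Over the 4 haemoglobin genes the ratio was 0.178, 0.180, 0.206 and 0.211 in KO, against 0.223, 0.216 and 0.226 in flox. Every KO library thus lay below every flox library, narrowly for KO 4 (0.211) against flox 2 (0.216). Of all tested genes, taken singly, 13.6% had KO and flox values without overlap, in either direction. The median log2 fold change was 0.40 for the 4 haemoglobin genes and 0.18 for the 8 genes. Without flox 2 these medians were 0.25 and -0.01. The 17 other genes include 7 genes of haemoglobin-making cells, whose log2 fold changes with all libraries were 0.15 to 0.38, with a median of 0.26. No ratio to these 7 genes alone is given. On the log2 scale the mean difference was -0.20 for haemoglobin, -0.01 for the 17 genes and 0.09 for the 10 progenitor genes alone, where the ratio was 2.05 to 2.67 in KO and 2.20 to 2.22 in flox. No test is given for these sums. Such ratios do not depend on library scaling.

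**Figure D4:**
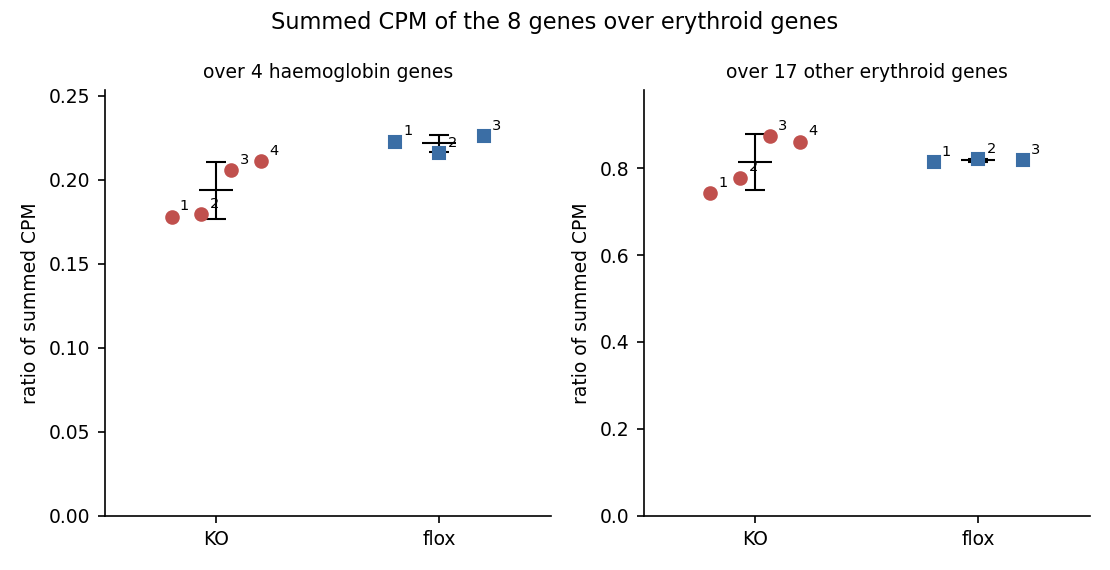
Ratio of the summed CPM of the 8 genes to that of 4 haemoglobin genes (left panel) and 17 other erythroid genes (right panel) in KO (circles) and flox (squares), with mean and SD in black and replicates numbered. KO libraries lie at 0.178 to 0.211 and flox libraries at 0.216 to 0.226 over haemoglobin; over the other erythroid genes the groups overlap.

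None of the listed relatives from the same protein families passed with edgeR. Of 25 listed relatives, such as the general spectrins, ankyrins and SLC4 transporters, 23 were tested and 0 passed, with 10 positive, 13 negative and a median of -0.08, which was -0.000753 without flox 1, -0.05 without flox 2, -0.04 without KO 3 and -0.14 without flox 3. An unadjusted p under 0.05 was found for 6 of the 23, against 14.1% of all tested genes. KO 3 was the highest and flox 2 the lowest library for 0 of the 23, an order that 5.93% of all tested genes have. The ankyrin gene Ank3 had 2.66, 2.82, 2.37 and 2.59 CPM in KO and 4.94, 3.28 and 4.55 CPM in flox (-0.71, SE 0.18, edgeR adjusted p = 0.186). Every KO library lay below every flox library for Ank3, and KO and flox values did not overlap, in either direction, for 7 of the 23 relatives, against 13.6% of all tested genes. With DESeq2 3 of the 23 relatives passed, against 2.04% of all tested genes. Among these 3 were Ank3 (DESeq2 adjusted p = 0.0239) and Epb41l4b (0.79, DESeq2 adjusted p = 0.0241). Epb41l4b, a relative of Epb41, had 15.9, 15.7, 19.8 and 16.7 CPM in KO and 6.89, 8.81 and 14.1 CPM in flox. The other relatives named by lowest p were Slc4a7 (0.28, edgeR adjusted p = 0.269), Epb41l2 (0.25, 0.302), Slc4a11 (0.67, 0.393), Sptbn4 (-0.69, 0.284) and Slc4a3 (-0.65, 0.381). Ank3 is known from neurons, and 8 neuronal markers summed to 11.3 to 13.2 CPM in KO and 14.3 to 17.1 CPM in flox. Of these 7 were tested, 6 negative and 1 positive, with a median log2 fold change of -0.95. With edgeR 1 of the 7 passed, in the lower direction, and 4 had an unadjusted p under 0.05. The sum of 9 intestinal epithelium markers was 78.6 to 83.6 CPM in KO, against 34.997, 33.5 and 33.5 CPM in flox. All 9 of 9 passed with edgeR in the higher direction, against 0.145% of all tested genes in either direction. In the same direction as Ank3, 10 stroma and endothelial markers summed to 388 to 564 CPM in KO and 573 to 975 CPM in flox, and 8 megakaryocyte markers to 469 to 678 CPM in KO and 609 to 1142 CPM in flox. Their median log2 fold changes were -0.79 and -0.65, and 0 of either list passed with edgeR (unadjusted p under 0.05 for 7 of 10 and 7 of 8). Neutrophil and monocyte markers had negative medians too, at -0.38 and -0.16. Medians were positive for B lineage (1.04), T and NK cell (0.34) and skeletal muscle markers (0.51), as for the erythroid lists. No gene of these lists passed with edgeR. The part of any of these marker lists in the relatives' values was not tested.

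The gene most like the 8 in its levels over the libraries was another gene of the same skeleton. Among tested genes averaging 1 or more on the log2 CPM scale, Pearson's r with the mean log2 CPM of the 8 genes over the 7 libraries was highest for Dmtn (0.998), dematin, which bundles its actin, followed by Slc43a3 (0.998), a purine base transporter, Cln8 (0.997), Arhgef12 (0.996), a guanine nucleotide exchange factor, and Trak2 (0.996), a mitochondrial transport adaptor. These 5 had log2 fold changes of 0.09 to 0.19 and edgeR adjusted p of 0.733 to 0.789. The median r was 0.949 over the 27 other membrane genes, 0.912 over progenitor genes and 0.949 over haemoglobin-making cells, against -0.01 over the relatives and -0.02 over all tested genes. Among the relatives r ran from -0.645 (Tgm1) to 0.875 (Tgm2). Neutrophil markers ran the other way, with r from -0.782 to -0.075 over 9 genes, and their sum was highest in flox 2, at 58162 CPM, where the 8 genes were lowest. All 9 had a negative log2 fold change, with a median of -0.38, and 0 passed with edgeR. An unadjusted p under 0.05 was found for 7 of the 9, against 14.1% of all tested genes. As CPM are shares of a library, more of 1 cell type lowers the others. The part of neutrophil RNA in the values of the 8 genes was not tested. B lineage markers, at 72.6 CPM in flox 1 against 443 and 686 CPM in flox 2 and flox 3 and 730 to 896 CPM in KO, had a median r of -0.149.

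**Figure D5:**
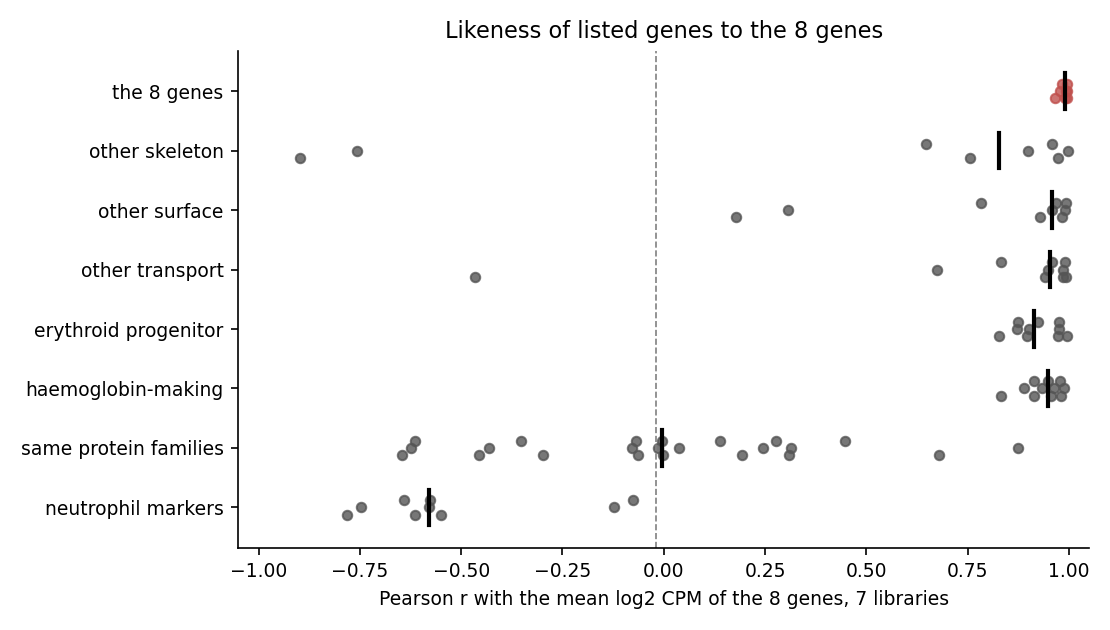
Pearson r over 7 libraries between each listed gene's log2 CPM and the mean log2 CPM of the 8 genes, 1 point per gene, with a black bar at each list's median and a dashed line at the median of all tested genes. All erythroid genes lie above 0.8 and most other membrane genes near 1, with 3 membrane genes below 0; relatives scatter around 0 and neutrophil markers lie below 0; the 8 genes (top row) enter their own mean.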

How the data were processed

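Poly(A) RNA was sequenced from bone marrow of 4 KO and 3 flox mouse samples, per the labels. The authors deposited raw counts per Ensembl gene in 1 table, with 1 column per library. Per the submitters' processing notes, the tools were Trimmomatic 0.36 for trimming, STAR 2.5.2b for alignment (GRCm38) and Subread 1.5.2 with its featureCounts for counting. Annotation release, strand setting and the handling of multiply mapping reads: not given in the sources used here. Of 49315 gene IDs, 49056 matched GENCODE M21 and 259 did not. Columns were matched to samples by the library codes in the labels, and 0 columns were left over. Chi-square per degree of freedom between libraries of 1 group was 19.0 to 90.6, so no library was counted as a duplicate.

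Counts were filtered with filterByExpr (minimum count 10), scaled with TMM and tested with robust glmQLFit and glmQLFTest (edgeR 4.0.16, R 4.3.3), two-sided, with Benjamini-Hochberg adjustment over all 17920 genes and a threshold of 0.05. Alternatives used DESeq2 1.42.0 and limma 3.58.1 among others. Log2 CPM used a prior count of 2, and standard errors follow from the F statistic. The edgeR step was tested on simulated data. Named genes outside the 8 were up to 4 with the lowest p in each direction per block of lists, and the 5 most alike in pattern. The 8 genes and all lists were chosen with earlier results of these data known. Ahsp, on the list of haemoglobin-making cells, was not analysed here, and some genes that the rule names are not reported here.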

Additional observations from a re-analysis of the deposited data

Results flagged for a closer look

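In the 4 KO libraries, 9 of 61 values had 1 library far from the other 3 by Dixon's gap test at the 95% level (groups of 3 were not tested); chance flags about 1 in 20, and several of these sums contain each other. KO 3 was high for the whole list of haemoglobin-making cells (70653 CPM), for the haemoglobin genes (61001 CPM), for that list without haemoglobin (9651 CPM) and for both erythroid lists together (75357 CPM). KO 3 was also high for Hbb-bs (32058 CPM), Hbb-bt (6611 CPM) and Bpgm (1654 CPM). KO 2 stood apart by a low Ank1 share of the 8 genes' summed CPM (6.74%) and by a high Add3 level (243 CPM).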

How the results depend on the processing

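Under each of 17 alternatives 0 of the 8 genes passed. The 10 alternatives that kept all libraries gave log2 fold changes of 0.13 to 0.28, all positive. With 1 library left out they ranged from -0.0134 to 0.39 for Sptb, -0.0507 to 0.37 for Epb42, -0.000697 to 0.35 for Rhag, -0.0172 to 0.33 for Rhd and -0.0551 to 0.32 for Add2, the lowest always without flox 2; the cause was not tested. Over all genes, 26 calls became 365 with DESeq2, 112 with no filter on low counts, 16 with non-robust dispersion, 13 with limma-voom and 2 to 14 with 1 library left out. With the replicate number as a block 4 genes and 0 of the 8 were called. The labels link same-numbered libraries by the number alone, and KO 4 had no partner. Correlations of deviations were -0.02, 0.08 and 0.02 for same-numbered pairs and -0.09 to 0.05 for the others. Whether same-numbered libraries shared a batch was not tested. By longest transcript, levels were 217 (Epb41), 75.4 (Epb42), 78.5 (Ank1) and 29.98 (Add2) CPM per kilobase, since that length is shorter. The log2 difference of the 8 genes relative to the 21 listed erythroid genes was -0.16, and -0.0106 with haemoglobin left out. Haemoglobin made up 50550 of the mean 62565 CPM of those 21 genes in KO and 38558 of 49041 CPM in flox. At their depth, counting error in these genes is small beside the spread between libraries.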
